A study of Rattus norvegicus with 16 samples.

Results

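Islets of Langerhans kept for 18 h at 10 mmol/l glucose, the concentration of their preceding culture, were set against islets moved to 2 mmol/l glucose for the same time. Members were taken by the labelled glucose concentration, which gave 8 arrays, 4 at each concentration, of a series of 16 arrays of rat islet RNA that also holds 4 arrays at 5 and 4 at 30 mmol/l. All islets came from male Wistar rats of 180 to 200 g and were first kept for 1 week at 10 mmol/l glucose in a serum-free RPMI medium that held 5 g/l BSA, so the 10 mmol/l group is a continuation and the 2 mmol/l group a step down. Each condition held 1000 islets, and the 4 experiments used different islet preparations. A replicate number is read as 1 preparation, which makes 4 pairs of arrays. The measured quantity is the signal of each probe set of the Affymetrix Rat230_2 array, a linear intensity whose trimmed mean is near 150 on every array. Sets of 4 signals are given in the order of replicates 1 to 4. Changes are fitted log2 differences, 10 minus 2 mmol/l, with their standard error (n = 4 arrays per group), and a gene counts as called at an adjusted p under 0.05 over all tested probe sets.

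Beta cells, the insulin-secreting majority of an islet, take up glucose through the transporter GLUT2 and phosphorylate it with glucokinase, so that their rate of metabolism follows the concentration outside. The ATP made closes potassium channels, the membrane depolarizes, calcium enters through voltage-gated channels and insulin granules fuse with the membrane. In rodents 10 mmol/l lies well above the threshold for this sequence and 2 mmol/l below it. Glucose also acts on beta cell transcription, through the carbohydrate response factor ChREBP, through calcium and cAMP, and through the demand that proinsulin makes on the endoplasmic reticulum (ER). Beta cells cultured at very low glucose are known to activate stress pathways and to die in part by apoptosis.

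The difference between the 2 concentrations was broad and mostly small. Of 18625 tested probe sets 7885 were called (42.3%), 3864 higher (20.7%) and 4021 lower (21.6%) at 10 mmol/l. Counted as genes, 4822 of 10223 were called (47.2%), 2147 higher (21.0%) and 2675 lower (26.2%). The signals of the groups did not overlap in 3578 genes (35.0%), 1541 with 10 mmol/l above (15.1%) and 2037 with it below (19.9%). Over probe sets, 5726 did not overlap (30.7%). The change had 1 sign in 4 of 4 pairs in 4547 of the called genes. The median change of all tested genes was -0.022 and the median standard error 0.11. Among called genes, 1432 that were higher and 1598 that were lower differed by under 1.5-fold, while 131 were at least 2-fold higher and 291 at least 2-fold lower. At 4-fold and beyond there were 7 higher and 30 lower genes.

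Bright probe sets moved together. Of the 200 brightest probe sets 171 were called higher and 2 lower at 10 mmol/l, with a median change of 0.39, and these 200 held 17.4 ± 0.83% of the summed signal at 10 mmol/l and 14.2 ± 0.67% of it at 2 mmol/l, with the SD over 4 arrays. The 9 probe sets of the hybridization controls, RNAs added from outside the sample, moved the same way: their mean log2 signal was 9.92 ± 0.11 at 10 mmol/l and 9.42 ± 0.105 at 2 mmol/l, higher at 10 mmol/l in 4 of 4 pairs by 0.51 ± 0.20 (SD). The 3′ to 5′ signal ratio of Actb was 2.07 ± 0.14 at 10 mmol/l and 1.76 ± 0.13 at 2 mmol/l, higher in 4 of 4 pairs, and that of Gapdh was 0.798 ± 0.059 at 10 mmol/l and 0.864 ± 0.068 at 2 mmol/l, higher in 0 of 4. Within every replicate number the 2 mmol/l array was scanned before the 10 mmol/l array, so scan order and glucose cannot be told apart. Every scan day, chip lot and replicate number held both groups. The part of these differences in the changes of bright genes was not tested, and the gene lists that moved most under quantile normalization, which forces the same distribution on every array, are given with both scalings.

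**Figure D1:**
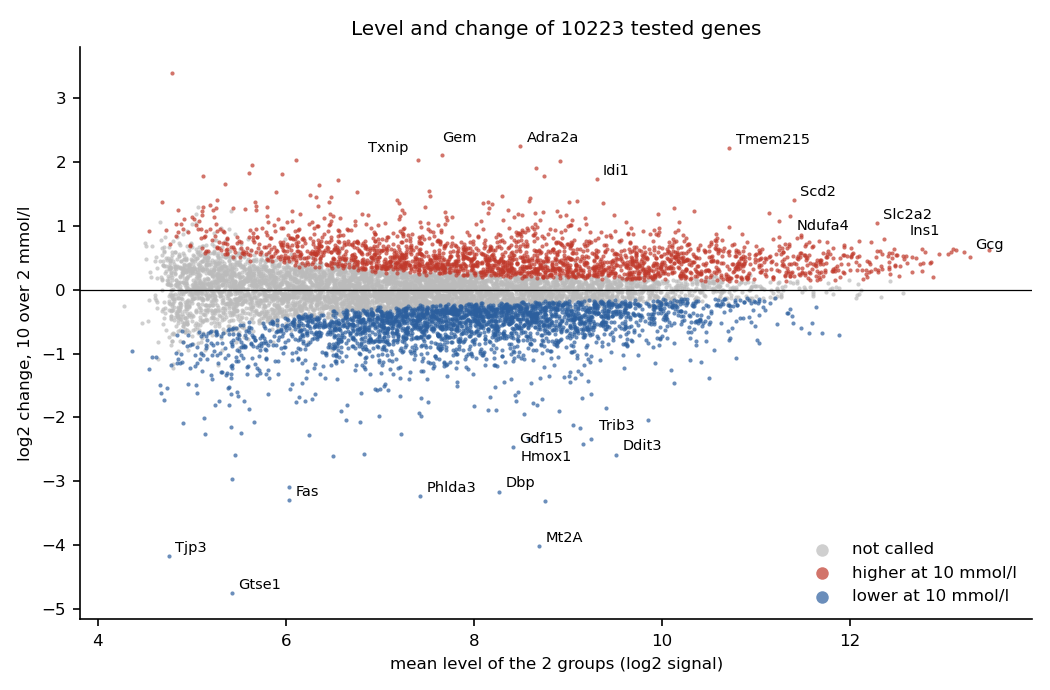
Each point is 1 of 10223 tested genes, with the mean log2 signal of the 2 groups on the horizontal axis and the fitted log2 change (10 over 2 mmol/l) on the vertical axis. Red points were called higher at 10 mmol/l (2147), blue points lower (2675) and grey points not called. The steepest changes reach -4.75 (Gtse1) below 0 and 3.39 (Bpifa2f) above it, and the brightest genes lie mostly above 0.

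The steepest decreases, among called genes with 4 of 4 pairs one way, no overlap of the groups and a mean signal of at least 100 in the higher group, included genes of the p53 response, cell stress and the clock. Gtse1, a microtubule protein of the G2 phase that restrains p53, had signals of 4.9, 2.9, 7.8 and 21.7 at 10 mmol/l and 160.1, 256, 205 and 176 at 2 mmol/l. One of the 10 mmol/l arrays lay at or under the floor of 3.4, so its fitted change of -4.75 ± 0.41 (adjusted p = 7.14e-08) is imprecise. Tjp3, a tight junction protein, had 18.0, 3.0, 5.1 and 1.9 at 10 mmol/l and 129, 88.1, 104 and 93.7 at 2 mmol/l, with 2 arrays at the floor. The metallothionein Mt2A, a small zinc- and copper-binding protein, had 116, 65.7, 10.8 and 364 at 10 mmol/l and 1332, 793, 1258 and 1542 at 2 mmol/l. Its 10 mmol/l signals spread widely among replicates (change -4.01 ± 0.53, adjusted p = 7.28e-06). That each lay below every array at 2 mmol/l was required by the rule. Spetex2l2, which is named here by its symbol alone, fell by 3.32 ± 0.14 and Mybl1, a transcription factor of the Myb family, by 3.09 ± 0.21 (adjusted p = 2.09e-11 and 4.55e-09). Rnf144b, an E3 ubiquitin ligase, fell by 2.59 ± 0.23, Inka2 by 2.58 ± 0.16 and the inflammatory caspase Casp4 by 2.34 ± 0.12. LOC100909675 had a change of -2.61 ± 0.30. The thiamine transporter Slc19a2, which shared the smallest adjusted p of the decreases with Spetex2l2, had 279, 263, 212 and 239 at 10 mmol/l and 1027, 949, 929 and 795 at 2 mmol/l (change -1.90 ± 0.08, adjusted p = 2.09e-11). LOC100912041 had a change of -2.03 ± 0.089.

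The largest increases by the same rule included genes of receptors, signalling and lipid transport. Adra2a, the alpha-2A adrenergic receptor through which noradrenaline inhibits insulin release, had 854, 760.2, 782 and 703 at 10 mmol/l and 217, 194, 119 and 144 at 2 mmol/l (change 2.24 ± 0.12, adjusted p = 2.21e-10). The rule required groups without overlap, and here the lowest array at 10 mmol/l (703) stood far above the highest at 2 mmol/l (217). Tmem215, a membrane protein, had 3199.7, 4079, 3812 and 3371 at 10 mmol/l and 773, 986, 689 and 697 at 2 mmol/l, which gave the smallest adjusted p (5.13e-13). Mfsd2a, the transporter of lysophosphatidylcholine with docosahexaenoic acid, had 160.5, 150.2, 148 and 100.4 at 10 mmol/l and 31.0, 35.1, 30.5 and 39.3 at 2 mmol/l. The neurotrophin receptor Ntrk2 had 866, 809.6, 807 and 597 at 10 mmol/l and 264, 272, 194 and 126 at 2 mmol/l (change 1.90 ± 0.11), and 2 of its other 3 tested probe sets were called higher too. Tent5a, a poly(A) polymerase, changed by 2.02 ± 0.11, the kinetochore protein Dsn1 by 1.82 ± 0.18, the neuronal microtubule protein Dcx by 1.79 ± 0.12, and the trace amine receptor Taar1 by 1.71 ± 0.15. Tmem100, the orphan receptor Gpr6 and the matricellular protein Smoc1 changed by 1.64 ± 0.14, 1.54 ± 0.15 and 1.48 ± 0.34. The one larger fitted increase was in Bpifa2f, named here for its place in the plot of level and change. It had low signals of 79.8, 111, 58.9 and 68.7 at 10 mmol/l and 11.7, 19.1, 3.9 and 3.4 at 2 mmol/l, 1 of them at the floor, so its change of 3.39 ± 0.30 (adjusted p = 8.2e-08) is imprecise. The sialyltransferase St6gal1, the kinase-anchoring protein Sphkap and Tmem123 had smaller changes (1.36, 1.20 and 1.24) with small errors and adjusted p of 2.09e-11, 1.28e-10 and 5.16e-10.

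**Figure D2:**
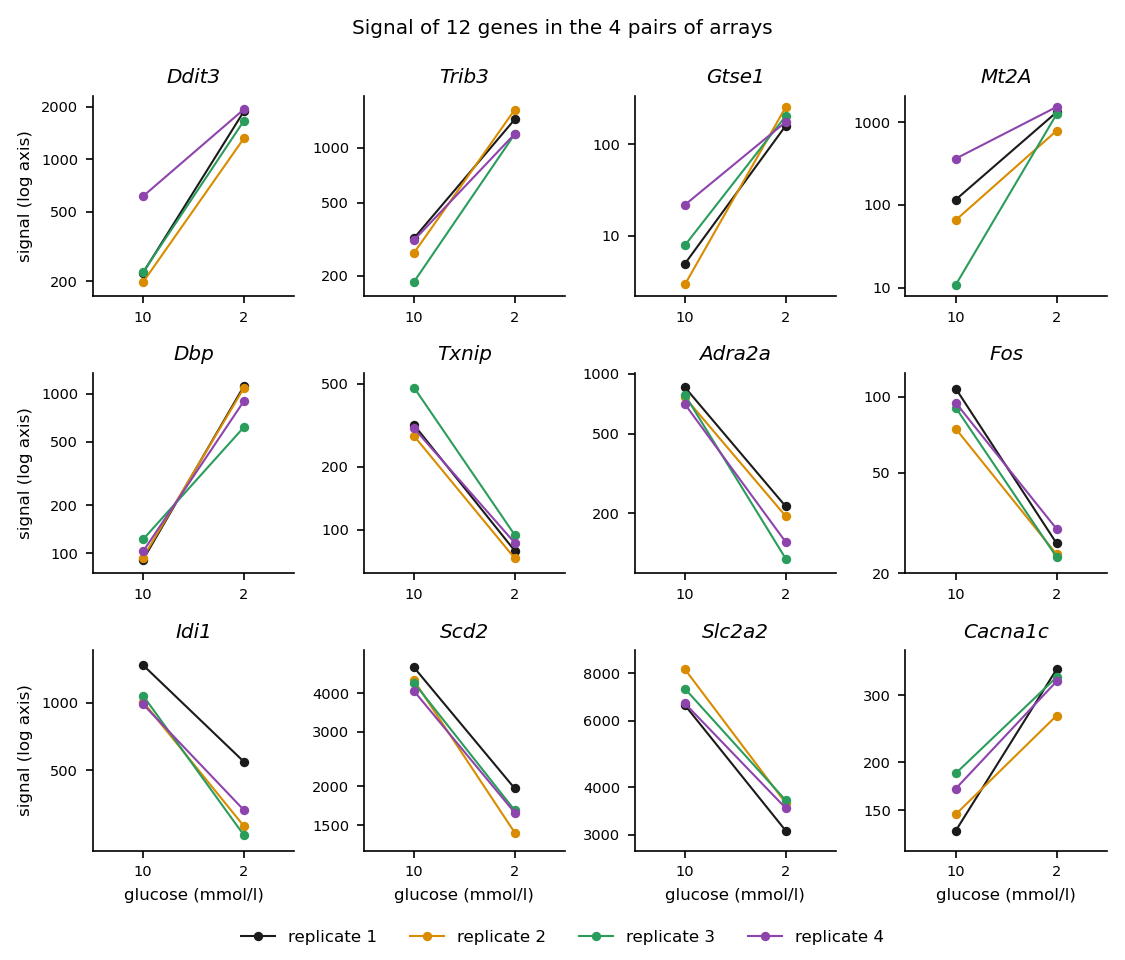
Signals of 12 genes on log axes, at 10 mmol/l (left) and 2 mmol/l (right), with 1 line per replicate number joining its 2 arrays. All 4 lines of each gene run the same way, downward to the right in Txnip, Adra2a, Fos, Idi1, Scd2 and Slc2a2 and upward in the other 6. Ddit3 at 10 mmol/l shows replicate 4 apart, at 614.

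The named pathways were described with 40 gene lists of 1056 genes, 944 of them with a probe set and 817 tested, each read against the 21.0% of genes called higher and the 26.2% called lower.

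**Figure D3:**
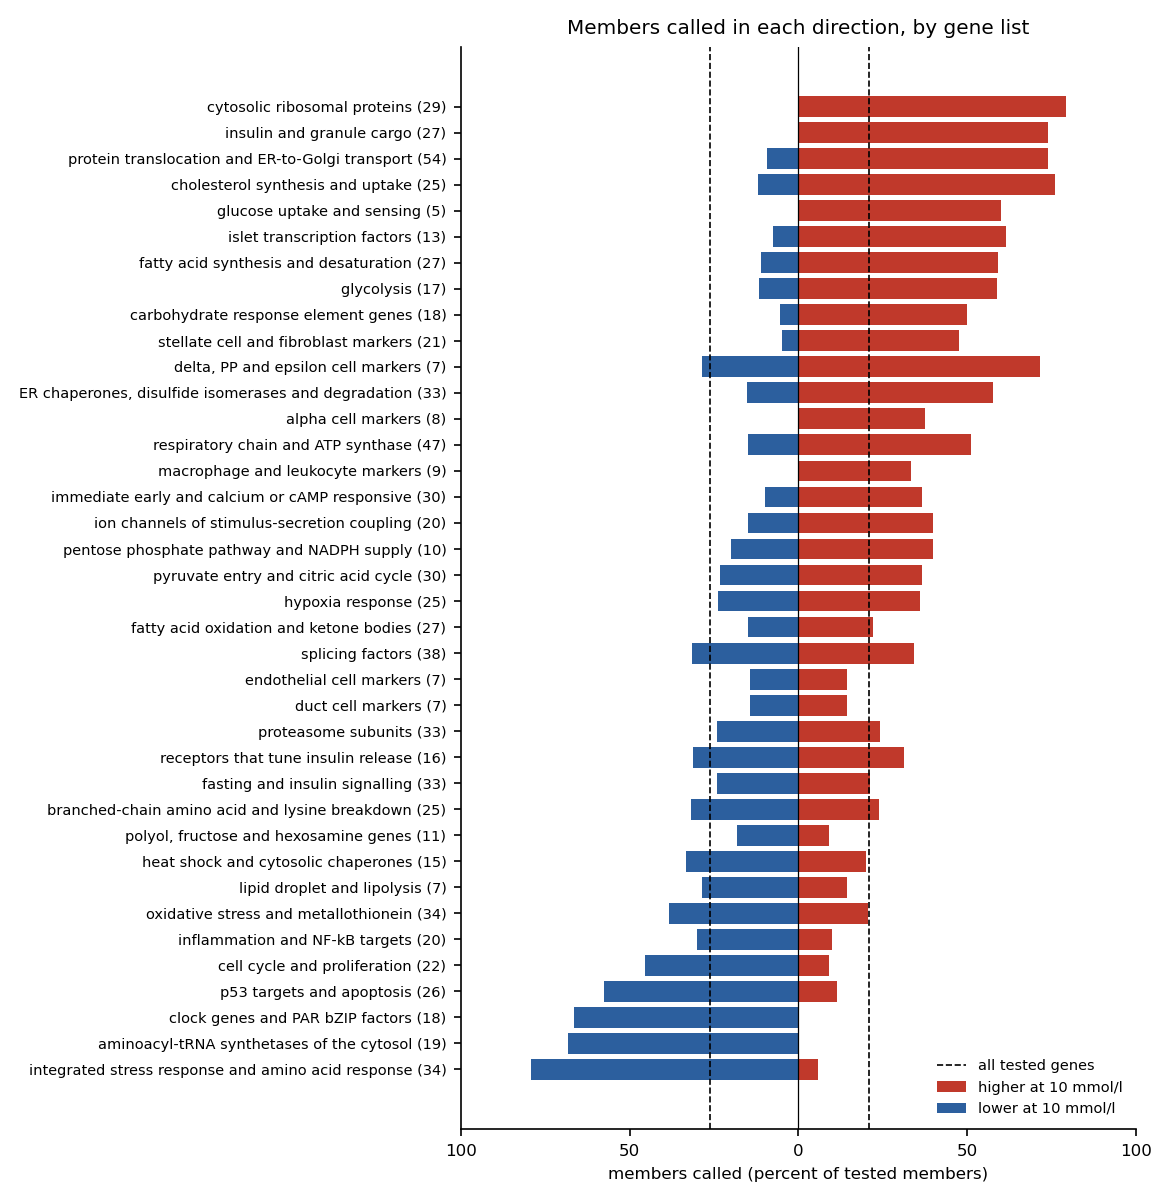
For each list with at least 5 tested members (number in brackets), red bars give the percent of tested members called higher at 10 mmol/l and blue bars the percent called lower. Dashed lines mark the same for all tested genes (21.0% and 26.2%). Ribosomal (a list whose direction turned under quantile normalization), granule, ER transport and cholesterol lists extend furthest to the right. The stress response, synthetase, clock, and joint p53 and apoptosis lists extend furthest to the left.

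Most genes of the integrated stress response list were lower at 10 mmol/l. In this pathway phosphorylation of the initiation factor eIF2 slows translation while the factor ATF4 induces genes of amino acid supply and, with CHOP, of cell death. Of 34 tested members 27 were called lower and 2 higher, with a median change of -0.60 against -0.022 over all genes. Without replicate 4 at 10 mmol/l the counts were 26 lower and 2 higher. Ddit3, which encodes CHOP, had 224, 198, 226 and 614 at 10 mmol/l and 1877, 1315, 1657 and 1928 at 2 mmol/l (change -2.58 ± 0.18, adjusted p = 5.85e-09). The 10 mmol/l array of replicate 4 stood well above its 3 companions, yet still below every 2 mmol/l array. Trib3, a pseudokinase that CHOP induces, had 321, 267, 186 and 313 at 10 mmol/l and 1423, 1608, 1183 and 1186 at 2 mmol/l (change -2.33 ± 0.10, adjusted p = 2.41e-11), and both of its other tested probe sets were called lower. Ppp1r15a, the phosphatase subunit that dephosphorylates eIF2, had 228, 221, 234 and 341 at 10 mmol/l and 1266, 994, 962 and 1185 at 2 mmol/l. The cytokine Gdf15 had 159, 91.4, 96.5 and 262 at 10 mmol/l and 792, 711, 716 and 834 at 2 mmol/l. No array at 10 mmol/l reached the lowest array at 2 mmol/l in any of these 4 genes. The rule for the steepest decreases required this of its members, Ddit3 and Gdf15 among them. Over the list, 10 mmol/l lay wholly below 2 mmol/l in 22 of 34 and wholly above in 2, against 19.9% and 15.1% of all tested genes. Atf3, a repressor of the same family, fell by 1.91 ± 0.22 and Cebpb, the partner of CHOP, by 1.65 ± 0.10. The amino acid sensor Sesn2 fell by 0.80 ± 0.094 (adjusted p = 2.16e-06). Atf4 itself had 5186, 4732, 4601 and 5334 at 10 mmol/l and 5409.6, 5268, 4989.7 and 5889 at 2 mmol/l, and its change of -0.12 ± 0.055 did not pass (adjusted p = 0.0944). Atf5 went against the list, with 1081, 891, 1159 and 1184 at 10 mmol/l and 519.6, 411, 554 and 445 at 2 mmol/l (change 1.16 ± 0.067, adjusted p = 5.38e-10).

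Aminoacyl-tRNA synthetases of the cytosol, which charge tRNAs with their amino acids and are known targets of ATF4, were called lower in 13 of 19 and higher in 0, with a median change of -0.36. Aars1 had 954, 895, 738 and 1001 at 10 mmol/l and 2651, 2659, 1891 and 2217 at 2 mmol/l (change -1.39 ± 0.082, adjusted p = 6.88e-10), the steepest change of the list. Sars1 had 914, 979, 801 and 1021 at 10 mmol/l and 1961, 1996, 1982 and 2142 at 2 mmol/l (change -1.13 ± 0.084). Yars1 had 1169.9, 1173, 992 and 1020.0 at 10 mmol/l and 2148, 2162, 1975 and 2060.2 at 2 mmol/l (change -0.94 ± 0.054), and Mars1 fell by 0.73 ± 0.067. The groups did not overlap in any of these 4, which were picked for their small p. Over the list, 10 mmol/l lay wholly below 2 mmol/l in 9 of 19, against 19.9% of all tested genes. With the mean of all probe sets of a gene, 9 synthetases were called lower and 0 higher (median -0.22).

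The promoters of these genes were searched for the composite element that ATF4 binds with C/EBP proteins, TGATGNAA on either strand, in the RefSeq windows from 250 bases before to 50 after each gene's start (GRCr8). It was present in 7 of 17 synthetase promoters (41.2%), all 7 among the 11 called members (Aars1, Cars1, Iars1, Mars1, Nars1, Tars1 and Yars1), and in 6 of 30 stress response promoters (Chac1, Herpud1, Nupr1, Slc1a4, Slc7a1 and Trib3). Over all 8592 tested genes with a window it was in 1.94%, over genes called lower in 2.62% and over genes called higher in 1.75%. Over the 27457 promoters of the table it was in 3.82%. Shown are 8 upstream matches, chosen after their values were seen, each with 20 bases on either side, printed along the strand that reads the element, with the element in capitals. No other motif searched overlapped them, and a match says only that these letters are present.
Aars1, chr19:55908350-55908397, minus strand: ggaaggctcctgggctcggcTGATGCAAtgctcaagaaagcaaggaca
Mars1, chr7:65023743-65023790, plus strand: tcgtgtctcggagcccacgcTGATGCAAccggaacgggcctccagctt
Iars1, chr17:15193649-15193696, plus strand: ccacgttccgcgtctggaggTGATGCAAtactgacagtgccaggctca
Tars1, chr2:62114802-62114849, plus strand: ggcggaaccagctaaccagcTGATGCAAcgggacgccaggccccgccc
Trib3, chr3:161275527-161275574, plus strand: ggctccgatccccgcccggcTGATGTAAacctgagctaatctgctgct
Chac1, chr3:126795944-126795991, minus strand: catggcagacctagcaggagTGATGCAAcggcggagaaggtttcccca
Nupr1, chr1:190645929-190645976, plus strand: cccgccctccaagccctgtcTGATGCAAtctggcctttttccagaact
Herpud1, chr19:10614864-10614911, plus strand: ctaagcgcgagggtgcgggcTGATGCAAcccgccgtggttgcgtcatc
Of the 8 genes, Chac1, which degrades glutathione, had signals of 1043, 1048, 741 and 911 at 10 mmol/l and 1400.3, 1752, 1073 and 1182 at 2 mmol/l, and Herpud1, a stress-induced ER membrane protein, had 1455, 1349, 1352 and 1449 at 10 mmol/l and 2073, 2196, 1988 and 2232 at 2 mmol/l. Iars1 and Tars1 changed least among the synthetases printed, by -0.39 ± 0.072 and -0.23 ± 0.081.

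**Figure D4:**
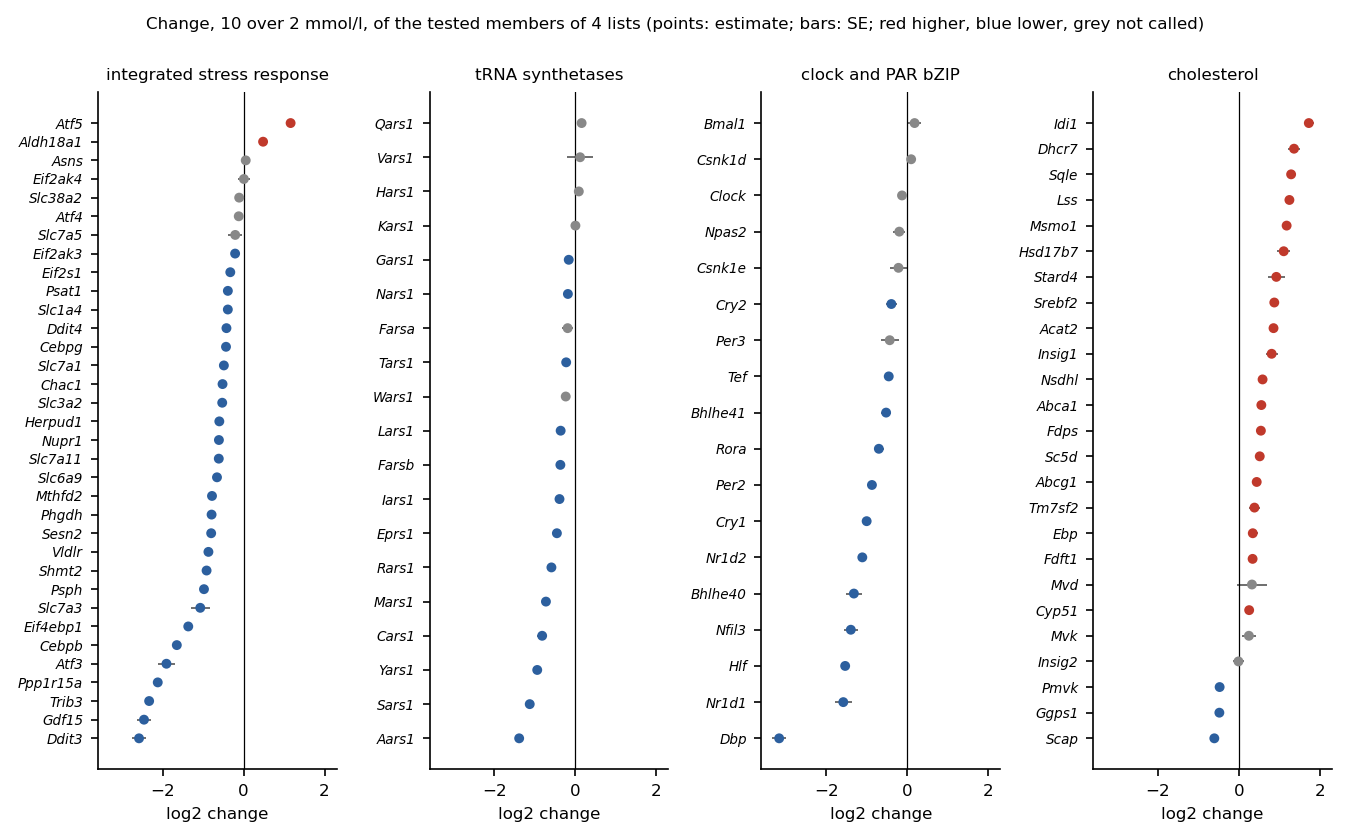
Fitted log2 change (10 over 2 mmol/l, points) with its standard error (bars) for every tested member of 4 lists, ordered within each list. Red points were called higher at 10 mmol/l, blue points lower and grey points not called. The stress response, synthetase and clock lists extend to the left down to Ddit3 (-2.58), Aars1 (-1.39) and Dbp (-3.16), and the cholesterol list to the right up to Idi1 (1.73).

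The transcription factor p53 halts the cell cycle or starts apoptosis after damage. In a joint list of p53 targets and apoptosis genes 15 of 26 were called lower and 3 higher (median change -0.63). Mdm2, the ubiquitin ligase that degrades p53, had 359, 267, 290.0 and 357 at 10 mmol/l and 1202, 949, 928 and 1013 at 2 mmol/l (change -1.69 ± 0.075, adjusted p = 2.79e-11). Phlda3, an inhibitor of Akt, had 53.5, 56.6, 39.6 and 78.2 at 10 mmol/l and 601, 522, 492 and 477 at 2 mmol/l. The death receptor Fas had 31.6, 10.3, 19.2 and 25.7 at 10 mmol/l and 241, 170.0, 194 and 189.5 at 2 mmol/l (change -3.30 ± 0.26). Each of these 3 genes had all of its 10 mmol/l arrays below all of its 2 mmol/l arrays. The rule for the steepest decreases required this of its members, Fas among them. Over the list, 10 mmol/l lay wholly below 2 mmol/l in 15 of 26 and wholly above in 2, against 19.9% and 15.1% of all tested genes. The exonuclease Aen fell by 1.80 ± 0.12, and Cdkn1a, the cell cycle inhibitor p21, had 171, 205, 131 and 205 at 10 mmol/l and 270.0, 385, 487 and 369.8 at 2 mmol/l (change -1.08 ± 0.17). The 3 called higher were the survival factor Bcl2, Sesn1 and Ei24, named here after their values were seen, with changes of 1.11, 0.36 and 0.35. In the cell cycle list 10 of 22 tested members were called lower and 2 higher, while 16 further members with a probe set, Mki67 and Top2a among them, lay below the level filter. Tyms, which makes thymidylate, fell by 1.55 ± 0.16, and cyclin D1 (Ccnd1) changed by 0.58 ± 0.092. The other member called higher was Ccnd2, with a change of 0.21 ± 0.073 (adjusted p = 0.0261) that turned to -0.03 under quantile normalization. Ccnd2 also lost its call without replicate 1 (0.15), replicate 4 (0.21), replicate 1 at 2 mmol/l (0.16) or replicate 1, 2 or 4 at 10 mmol/l (0.18, 0.18 and 0.21).

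Genes of oxidative and metal stress split. Of 34 tested members 13 were called lower and 7 higher (median -0.14). The decreases were the steeper: heme oxygenase Hmox1 had 496, 268, 121 and 171 at 10 mmol/l and 1528, 1274, 827 and 1376 at 2 mmol/l (change -2.42 ± 0.19), and the zinc exporter Slc30a1 had 128, 129, 86.3 and 105 at 10 mmol/l and 315, 320.3, 234 and 305 at 2 mmol/l (change -1.40 ± 0.10). Thioredoxin (Txn1) and the ER peroxiredoxin Prdx4, which detoxify peroxide, changed by 0.53 ± 0.052 and 0.71 ± 0.073. Among 15 heat shock genes 5 were called lower and 3 higher (median -0.097), against 9 lower and 2 higher under quantile normalization (median -0.26). The mitochondrial chaperone Hspa9 had 1429.7, 1658, 1469.5 and 1717 at 10 mmol/l and 2677, 2655, 2956 and 2944 at 2 mmol/l (change -0.84 ± 0.079). Hspa1a, the inducible Hsp70, had 244, 541, 287 and 1389.9 at 2 mmol/l, 131, 137, 121 and 1548 at 5 mmol/l and 92.3, 108, 84.6 and 1445 at 10 mmol/l. Replicate 4 was thus high at every concentration, with no drop at 10 mmol/l, and the fitted change of -1.36 ± 0.25 came from the other 3 pairs. Hspa1a shares most of its sequence with Hspa1b, so this level is uncertain as to the copy. Dnajb1 and Dnajb4, cofactors of Hsp70, changed by -0.55 ± 0.11 and 0.47 ± 0.094. Of 20 tested NF-kB and inflammation genes 6 were called lower and 2 higher. The adhesion molecule Icam1 had 62.2, 5.9, 8.3 and 2.9 at 10 mmol/l and 181, 97.8, 61.5 and 35.8 at 2 mmol/l, a lower signal in each pair although the groups overlapped. The interleukin 1 receptor Il1r1 had 2627, 2021, 1829.8 and 1632 at 10 mmol/l and 1580.3, 1103, 1022 and 958 at 2 mmol/l (change 0.80 ± 0.063), and Birc3 and Irf1 changed by -0.67 ± 0.17 and -0.40 ± 0.078. Without replicate 1 Birc3 was at -0.53 and no longer called (adjusted p = 0.0558).

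Clock genes and the PAR bZIP factors they drive, which give cells a daily rhythm of transcription, were called lower in 12 of 18 and higher in 0 (median change -0.61). With the mean of all probe sets of a gene, 9 were called lower and 1 higher (median -0.39). Dbp had 90.8, 93.8, 122 and 102 at 10 mmol/l and 1119.6, 1090.3, 618 and 901 at 2 mmol/l, a change of -3.16 ± 0.18 (adjusted p = 4.73e-10). Its relative Hlf had 173, 206, 145 and 178 at 10 mmol/l and 456, 600.0, 441 and 532 at 2 mmol/l. The repressor Nr1d2, also called Rev-erb beta, had 839.9, 784, 844 and 958 at 10 mmol/l and 1657, 1994, 1833 and 1894 at 2 mmol/l. The groups did not overlap in these 3 genes, which the rule for the steepest decreases required of Dbp. Over the list, 10 mmol/l lay wholly below 2 mmol/l in 11 of 18, against 19.9% of all tested genes. The period gene Per2 had 374, 331, 334 and 354 at 10 mmol/l and 619.9, 645, 638 and 638 at 2 mmol/l (change -0.87 ± 0.073, adjusted p = 4.67e-08). Bhlhe40, a repressor of clock and metabolic genes, changed by -1.32 ± 0.20. Bmal1 and Clock, the activators at the head of the loop, changed by 0.18 ± 0.15 and -0.13 ± 0.071 and were not called (adjusted p = 0.355 and 0.165), and both are named after their values were seen. A D-box, TTATGTAA on either strand, which PAR bZIP proteins bind, was present in 1 of 15 clock promoters (Per2) and in 0.361% of tested genes. The E-box CACGTG was in 3 of 15 (Bhlhe40, Bhlhe41 and Tef), in 9.76% of tested genes, in 12.1% of genes called lower and in 7.38% of those called higher.

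Transcripts of the machinery by which beta cells sense glucose were in part higher at 10 mmol/l. Of 5 tested genes of glucose uptake and sensing 3 were called higher and 0 lower (median 0.46), and 2 and 0 once probe sets were averaged per gene (median 0.21). Slc2a2, which encodes GLUT2, had 6594, 8202, 7289 and 6664 at 10 mmol/l and 3075, 3637, 3698 and 3527 at 2 mmol/l (change 1.04 ± 0.051, adjusted p = 7.03e-11). G6pc3, a glucose-6-phosphatase, and Pfkfb2, which makes the activator of phosphofructokinase, changed by 0.47 ± 0.10 and 0.46 ± 0.08. Of 20 tested channels and pumps 8 were called higher and 3 lower. The sodium channel Scn3a had 772, 637, 569.5 and 478 at 10 mmol/l and 305, 275, 261 and 294 at 2 mmol/l (change 1.10 ± 0.10). The L-type calcium channel Cacna1c had 132, 146, 187 and 171 at 10 mmol/l and 351, 266, 335 and 327 at 2 mmol/l (change -1.01 ± 0.10, adjusted p = 5.18e-07). These 2 channels moved in opposite directions by similar amounts, each without overlap of the groups. Over the list, 10 mmol/l lay wholly above 2 mmol/l in 6 of 20 and wholly below in 3, against 15.1% and 19.9% of all tested genes. The ER calcium pumps Atp2a2 and Atp2a3 changed by 0.46 ± 0.047 and 0.31 ± 0.049. Of 16 receptors that tune insulin release 5 were called higher and 5 lower. Next to Adra2a, the growth factor receptors Igf1r and Ghr changed by 0.69 ± 0.073 and 0.51 ± 0.068, and the somatostatin receptor Sstr3 had 254, 217, 272 and 239 at 10 mmol/l and 665, 556, 418 and 420.0 at 2 mmol/l (change -1.04 ± 0.11). The incretin receptor Glp1r had 450.2, 361, 346 and 299 at 10 mmol/l and 435, 359, 309.7 and 322 at 2 mmol/l and was not called (change 0.028 ± 0.086, adjusted p = 0.823).

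Of 13 tested islet transcription factors 8 were called higher and 1 lower (median 0.38), and 6 and 2 under quantile normalization (median 0.18). Hnf4a, mutated in a form of inherited diabetes, had 308, 232, 316 and 262 at 10 mmol/l and 132, 141, 154 and 124 at 2 mmol/l (change 1.02 ± 0.12, adjusted p = 1.53e-06). The insulin gene activators Mafa and Neurod1 changed by 0.47 ± 0.058 and 0.52 ± 0.074, and Pax6 by 0.40 ± 0.062. Pdx1, another insulin gene activator, went the other way, with 463, 753, 587 and 464 at 10 mmol/l and 665, 972, 648 and 728 at 2 mmol/l (change -0.42 ± 0.10, adjusted p = 0.0022).

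Insulin and the other cargo and proteins of the secretory granule were called higher in 20 of 27 and lower in 0 (median 0.52). A change in these bulk samples may be in the number of beta cells or in the RNA of each, which cannot be told apart. Granule genes are among the brightest probe sets. The hybridization controls, which were not counted among those, moved the same way by 0.51. Under quantile normalization 14 were called higher and 0 lower, with a smaller median of 0.19. Ins1 had 9069, 11424, 9235 and 8702 at 10 mmol/l and 5982, 6509, 5976 and 7526 at 2 mmol/l, and Ins2 had 6827, 9348, 6688 and 6172 at 10 mmol/l and 4783, 5435, 5152 and 6223 at 2 mmol/l. Their changes were 0.56 ± 0.068 and 0.42 ± 0.08, and the groups overlapped in Ins2, whose replicate 4 was slightly lower at 10 mmol/l. The 2 genes are near-identical, so their levels are uncertain as to the copy. The beta cell peptide Iapp changed by 0.62 ± 0.051 and the prohormone convertase Pcsk2 by 0.52 ± 0.06. The carboxypeptidase Cpe, which trims prohormones, changed by 0.57 ± 0.047, against -0.0044 after quantile normalization. Snap25, a SNARE protein of granule fusion, had 3786, 4028, 3983 and 3932 at 10 mmol/l and 2269, 2610.2, 2046 and 2445 at 2 mmol/l (change 0.75 ± 0.058). The granule membrane phosphatase Ptprn2 changed by 0.75 ± 0.056, and Chga, the granin chromogranin A, by 0.52 ± 0.074. Over 27 alternative settings Ins1, Ins2 and Pcsk2 each lost the call under 2, and Iapp and Chga under 1. Snap25 and Ptprn2 kept theirs under every setting.

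Along the secretory route, 40 of 54 genes of protein translocation and ER-to-Golgi transport were called higher and 5 lower (median 0.44), and 35 and 7 under quantile normalization (median 0.24). Rpn2, a subunit of the glycosylation complex, had 3905, 4147, 3721 and 3402 at 10 mmol/l and 2369, 2122, 1926 and 2173 at 2 mmol/l (change 0.82 ± 0.058, adjusted p = 6.13e-09). The coat GTPase Sar1a, the signal peptidase subunit Spcs3 and the translocon protein Ssr4 changed by 0.78 ± 0.064, 0.71 ± 0.053 and 0.74 ± 0.058. Of 33 ER chaperones, isomerases and degradation genes 19 were called higher and 5 lower (median 0.29), and 14 and 9 under quantile normalization (median 0.11). Edem2, a mannosidase-like factor of ER-associated degradation, had 616, 592, 696 and 692 at 10 mmol/l and 342, 257, 234 and 289 at 2 mmol/l (change 1.22 ± 0.10). Sel1l, the scaffold of the ubiquitin ligase in the same pathway, had 412, 524, 353 and 439 at 10 mmol/l and 737, 854, 849.5 and 752 at 2 mmol/l (change -0.90 ± 0.092). The groups did not overlap in either gene. Over the list, 10 mmol/l lay wholly above 2 mmol/l in 14 of 33 and wholly below in 3, against 15.1% and 19.9% of all tested genes. The disulfide isomerase Pdia6 changed by 0.53 ± 0.051. Hspa5, the chaperone BiP, had 7386, 8257, 8278 and 8481 at 10 mmol/l and 6626, 7001, 7030.0 and 7576 at 2 mmol/l, a change of 0.20 ± 0.049 (adjusted p = 0.0031) that turned to -0.31 under quantile normalization (adjusted p = 1.22e-05). Xbp1, the transcription factor that induces ER chaperones, changed by 0.037 ± 0.055 (adjusted p = 0.627), against -0.25 under quantile normalization (adjusted p = 0.000538).

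The ER stress element, read as CCAAT, any 9 bases and CCACG on either strand, to which ATF6 and NF-Y bind, was present in 8 of 26 ER chaperone promoters (Calr, Canx, Creld2, Dnajc3, Ero1b, Hsp90b1, Hspa5 and Xbp1) and in 15 of 8592 tested genes (0.175%). Among genes called higher it was in 8 of 1775, and among genes called lower in 3 of 2254. Shown are matches in 4 chaperone genes called higher at 10 mmol/l, chosen after their values were seen, with the element in capitals and no other searched motif across it. Hsp90b1 has 2 matches in its window and the farther one is shown.
Hspa5, chr3:38452953-38453011, plus strand: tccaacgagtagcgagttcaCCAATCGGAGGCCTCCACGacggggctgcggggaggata
Hsp90b1, chr7:23012431-23012489, minus strand: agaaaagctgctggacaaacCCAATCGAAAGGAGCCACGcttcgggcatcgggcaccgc
Dnajc3, chr15:102432514-102432572, plus strand: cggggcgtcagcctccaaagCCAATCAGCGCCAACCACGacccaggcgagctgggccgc
Creld2, chr7:121789219-121789277, minus strand: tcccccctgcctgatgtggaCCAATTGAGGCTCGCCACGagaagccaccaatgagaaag
These genes had modest changes. Dnajc3, an inhibitor of the kinase PERK, changed by 0.45 ± 0.065, the ER form of Hsp90 (Hsp90b1) by 0.44 ± 0.059 and Creld2 by 0.29 ± 0.08. Herpud1, which carries the ATF4 element printed above, was called lower in the same list.

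Most tested transcripts of lipid synthesis were called higher at 10 mmol/l in both of its branches. Of 25 genes of cholesterol synthesis and uptake 19 were called higher and 3 lower (median 0.54), counts that quantile normalization left as they were. Idi1, which isomerizes the building block of sterols, had 1469.6, 1008, 1075 and 983 at 10 mmol/l and 545, 281, 256 and 332 at 2 mmol/l (change 1.73 ± 0.12, adjusted p = 7.84e-09). Squalene epoxidase (Sqle) had 326, 274, 235 and 279.6 at 10 mmol/l and 127, 92.0, 115 and 122 at 2 mmol/l (change 1.29 ± 0.10). Lanosterol synthase (Lss) and the methylsterol oxidase Msmo1 changed by 1.25 ± 0.10 and 1.18 ± 0.09. The 4 genes showed no overlap of groups, which the rule for the largest increases required of Idi1. In Idi1 and Msmo1 replicate 1 was the highest array of both concentrations. Over the list, 10 mmol/l lay wholly above 2 mmol/l in 13 of 25 and wholly below in 3, against 15.1% and 19.9% of all tested genes. The 3 called lower were Pmvk, Ggps1 and Scap, the escort protein of the transcription factor SREBP, named after their values were seen, with changes of -0.48, -0.48 and -0.61. Of 27 genes of fatty acid synthesis and desaturation 16 were called higher and 3 lower (median 0.37). The desaturase Scd2 had 4845, 4396, 4324 and 4065 at 10 mmol/l and 1968, 1417, 1672 and 1644 at 2 mmol/l (change 1.40 ± 0.072, adjusted p = 1.49e-10), and 3 other probe sets of it were called higher as well. Fatty acid synthase (Fasn) had 426, 389, 432 and 412 at 10 mmol/l and 243, 236, 236 and 272 at 2 mmol/l (change 0.75 ± 0.091). The desaturases Scd and Fads1 changed by 1.06 ± 0.18 and 0.97 ± 0.085, ATP citrate lyase (Acly) by 0.49 ± 0.062, and Srebf1, which encodes SREBP1, by 0.67 ± 0.14. A sterol regulatory element, TCACNCCAC on either strand, was found in 0 of 20 cholesterol promoters and 0 of 22 fatty acid synthesis promoters, and in 0.978% of tested genes. With so rare a match, a count of 0 in lists of this size does not set them apart from other genes.

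Genes known to respond to ChREBP were called higher in 9 of 18 and lower in 1 (median 0.30). Txnip, an arrestin that binds thioredoxin, had 317, 281, 479 and 306 at 10 mmol/l and 79.3, 73.0, 94.4 and 86.5 at 2 mmol/l (change 2.03 ± 0.16, adjusted p = 1.53e-08). Rgs16, which speeds the shutdown of G protein signals, had 807, 768, 739 and 563 at 10 mmol/l and 244, 428, 272 and 305 at 2 mmol/l (change 1.22 ± 0.17). Pklr, the pyruvate kinase long taken as a glucose-responsive gene, had 211, 129.6, 150.2 and 182 at 10 mmol/l and 133, 128, 127 and 167 at 2 mmol/l and was not called (adjusted p = 0.167). The exact pair of E-boxes, CACGTG repeated after any 5 bases, was in 0 of 8592 windows and in 1 of all 27457 promoters. This exact spelling is thus too rare to tell the listed genes from others. Of 27 genes of fatty acid oxidation and ketone bodies 6 were called higher and 4 lower, near the share of all genes or below it. Hadh, a dehydrogenase abundant in beta cells, changed by 0.50 ± 0.051, Acat1 by 0.45 ± 0.06 and Pdk4, which inhibits pyruvate entry, by 0.32 ± 0.072, while Hadhb, a subunit of the trifunctional enzyme, fell by 0.44 ± 0.066. The gatekeeper of mitochondrial fatty acid entry, Cpt1a, had 271, 270.4, 265 and 228 at 10 mmol/l and 234, 249, 259 and 214 at 2 mmol/l and was not called (adjusted p = 0.356), nor were Ucp2 and Angptl4 (0.34 ± 0.17 and 0.34 ± 0.21). On lipid droplets, the coat protein Plin2 fell by 0.55 ± 0.076 and the lipase inhibitor G0s2 by 0.47 ± 0.12, while Plin3 changed by 0.39 ± 0.13. Plin3 lost its call without replicate 1, 2 or 3 (0.39, 0.38 and 0.32), without replicate 1 or 3 at 2 mmol/l (0.37 and 0.34) and without replicate 3 at 10 mmol/l (0.35). Ucp2 was called without replicate 4 (0.48) or its 10 mmol/l array (0.56).

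Transcripts of sugar and carbon metabolism changed by smaller steps. Of 17 glycolysis genes 10 were called higher and 2 lower (median 0.32). Triose phosphate isomerase (Tpi1) had 1387, 1402, 1452 and 1559.5 at 10 mmol/l and 857, 825, 791 and 998 at 2 mmol/l (change 0.75 ± 0.093). Phosphoglycerate mutase (Pgam1) and aldolase A (Aldoa) changed by 0.56 ± 0.057 and 0.42 ± 0.065. Slc16a1, the lactate and pyruvate transporter MCT1 that beta cells normally keep low, had 25.4, 30.1, 23.2 and 27.2 at 10 mmol/l and 63.3, 59.4, 74.4 and 63.9 at 2 mmol/l (change -1.30 ± 0.22). Its signals were low at both concentrations. Lactate dehydrogenase A (Ldha), likewise kept low, had 155, 105, 69.0 and 79.4 at 10 mmol/l and 82.3, 90.2, 63.3 and 77.9 at 2 mmol/l and was not called (adjusted p = 0.0866), except without replicate 3 at 2 mmol/l (0.41, adjusted p = 0.0456). Of 30 genes of pyruvate entry and the citric acid cycle 11 were called higher and 7 lower. Mitochondrial isocitrate dehydrogenase Idh2 had 909.5, 984, 947 and 1071 at 10 mmol/l and 1772, 1914, 1664 and 1798 at 2 mmol/l (change -0.87 ± 0.068, adjusted p = 1.88e-08), and its cytosolic relative Idh1 had 1162, 967, 992 and 936 at 10 mmol/l and 771, 622, 607 and 675 at 2 mmol/l (change 0.60 ± 0.066). The 2 enzymes, which make NADPH in different compartments, thus stood on opposite sides. Malic enzyme Me1, cytosolic malate dehydrogenase Mdh1 and the oxoglutarate dehydrogenase Ogdh changed by 0.44 ± 0.061, 0.56 ± 0.047 and 0.60 ± 0.082. In the pentose phosphate and NADPH list 4 of 10 were called higher and 2 lower, with the mitochondrial transhydrogenase Nnt at 0.58 ± 0.054 and the epimerase Rpe at -0.49 ± 0.082. In the polyol and hexosamine list 1 of 11 was called higher, Gnpnat1 (0.40 ± 0.063), and 2 lower, Gnpda1 (-0.51 ± 0.086) and aldose reductase Akr1b1 (-0.33 ± 0.082), whose change was 0.010 with the mean of its probe sets.

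Of 25 genes of amino acid breakdown 6 were called higher and 8 lower (median -0.14). These counts are near the shares of all tested genes (21.0% and 26.2%). Aass, the first enzyme of lysine breakdown, had 1991, 1891, 1788 and 1314 at 10 mmol/l and 723, 715, 775 and 647 at 2 mmol/l (change 1.27 ± 0.076, adjusted p = 7.65e-10), and Aldh7a1, which acts later in that pathway, changed by 0.57 ± 0.083. The valine enzyme Hibch fell by 0.55 ± 0.074. Abat, which degrades GABA, a transmitter that beta cells contain, had 157, 162, 162 and 169 at 10 mmol/l and 260.4, 311, 233 and 280.5 at 2 mmol/l (change -0.73 ± 0.091), but another probe set of Abat was called higher, and the mean of its probe sets gave 0.47 (adjusted p = 0.0922). In the list of fasting and insulin signalling 7 of 33 were called higher and 8 lower, again near the shares of all tested genes. The salt-inducible kinase Sik1 changed by 1.52 ± 0.24, the kinase Akt1 by 0.72 ± 0.081 and the factor Foxo3 by -0.43 ± 0.077, and the insulin receptor substrate Irs2 by 0.13 ± 0.12, which was not called (adjusted p = 0.421).

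Immediate early genes and genes that respond to calcium or cAMP were called higher in 11 of 30 and lower in 3 (median 0.24). Gem, a small GTPase that inhibits calcium channels, had 576, 347, 403 and 364 at 10 mmol/l and 85.5, 118, 92.9 and 89.8 at 2 mmol/l (change 2.11 ± 0.15, adjusted p = 6.72e-09). Fos, the classic immediate early factor, had 108, 74.8, 90.6 and 94.7 at 10 mmol/l and 26.3, 23.8, 23.2 and 30.0 at 2 mmol/l (change 1.83 ± 0.25). Crem, a cAMP-responsive factor, had 615, 496, 462 and 459.9 at 10 mmol/l and 249, 258, 272 and 272 at 2 mmol/l (change 0.94 ± 0.088), with 4 other probe sets called higher. The groups of these 3 genes did not overlap, which the rule for the largest increases required of Gem. Over the list, 10 mmol/l lay wholly above 2 mmol/l in 10 of 30 and wholly below in 1, against 15.1% and 19.9% of all tested genes. The phosphatase Dusp5, the phosphodiesterase Pde4b and Egr1 changed by 1.53 ± 0.16, 1.01 ± 0.12 and 0.87 ± 0.12. The 3 called lower were Myc, Jun and Pde4d, named after their values were seen. Myc had 19.9, 10.4, 16.7 and 36.9 at 10 mmol/l and 93.6, 111, 59.7 and 80.6 at 2 mmol/l (change -2.15 ± 0.27, adjusted p = 4.71e-06), and Jun and Pde4d changed by -0.39 and -0.31. The cAMP response element TGACGTCA was in 3 of 21 promoters of the list (Dusp1, Ier2 and Jund), none of them called, and in 3.4% of tested genes.

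Among housekeeping machinery, direction depended in part on the scaling. Of 29 cytosolic ribosomal protein genes 23 were called higher and 0 lower (median 0.30), but under quantile normalization 2 were called higher and 9 lower, so no direction is given for this family. Rps9 changed by 0.52 ± 0.053 and Rpl41 by 0.51 ± 0.051 with the deposited scaling, and Rps23 by 0.42 ± 0.048, against -0.04 after quantile normalization. Of 47 respiratory chain and ATP synthase genes 24 were called higher and 7 lower (median 0.22), and 16 and 10 under quantile normalization (median 0.043). Ndufa4, a small subunit associated with cytochrome oxidase, had 3486, 4829, 4427 and 3178 at 10 mmol/l and 1829.9, 1633, 1792 and 1781 at 2 mmol/l (change 1.16 ± 0.092), the largest change of that list. The complex I subunit Ndufa1 and the ATP synthase subunit Atp5pf changed by 0.71 ± 0.06 and 0.64 ± 0.064. Proteasome subunits were called higher in 8 of 33 and lower in 8, near the shares of all tested genes. Psmd2 and Psmb3 changed by 0.44 ± 0.056 and 0.43 ± 0.078 and the ATPase Psmc2 by -0.31 ± 0.049. Splicing factors were called higher in 13 of 38 and lower in 12. Srsf1, a founding member of the serine- and arginine-rich family, had 800.1, 647, 791 and 638 at 10 mmol/l and 395, 301, 307 and 293 at 2 mmol/l (change 1.15 ± 0.076), and Srsf5 and Srsf6 changed by 0.96 ± 0.10 and 0.88 ± 0.07. Luc7l, a component of the U1 particle, had 156, 101, 151 and 129.9 at 10 mmol/l and 294, 298, 219.6 and 291 at 2 mmol/l (change -1.04 ± 0.14). Neither of its 2 other tested probe sets was called. Of 25 hypoxia genes 9 were called higher and 6 lower, with the 2 oxygen-regulated factors apart: Epas1 changed by 0.87 ± 0.09 and Hif1a by -0.49 ± 0.048.

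Markers of other cell types were examined because islets hold several kinds of cell. The alpha cell hormone gene Gcg had 10198, 13698, 12113 and 11667 at 10 mmol/l and 7037, 8554, 8401 and 9462 at 2 mmol/l, a change of 0.51 ± 0.059 that turned to -0.06 after quantile normalization, and 3 of 8 alpha markers were called higher and 0 lower (median 0.25), or 2 and 0 after quantile normalization (median 0.13). Somatostatin (Sst), the delta cell hormone, changed by 0.63 ± 0.055, Ppy by 0.49 ± 0.074 and Pyy by 0.90 ± 0.084, and 5 of 7 markers of delta, PP and epsilon cells were called higher and 2 lower, or 2 and 1 without the replicate block. Of 22 acinar markers with a probe set only Bhlha15 passed the level filter (95.5, 88.0, 147 and 96.8 at 10 mmol/l and 45.8, 70.7, 61.4 and 68.7 at 2 mmol/l). The summed signal of all 22 was 305 to 369 at 10 mmol/l and 204 to 277 at 2 mmol/l, and 17 of them lay at the floor in at least 1 array, Prss2 and Amy2a3 being among the dimmest. Duct markers summed to 6505 to 7618 at 10 mmol/l and 6700.0 to 7339 at 2 mmol/l, with Epcam called higher (0.40 ± 0.054) and Krt7 lower (-0.54 ± 0.065). Endothelial markers summed to 418 to 610.3 at 10 mmol/l and 420.4 to 551 at 2 mmol/l, with Pecam1 called higher (0.58 ± 0.22) and Esam lower (-0.61 ± 0.11). Pecam1 lost its call when any 1 of the 8 arrays or any replicate number was left out (0.45 to 0.65). Macrophage and leukocyte markers summed to 839.8 to 1041 at 10 mmol/l and 665 to 820.1 at 2 mmol/l, and 3 of 9 were called higher, Cd74 (0.84 ± 0.13), C1qa (0.55 ± 0.13) and Fcer1g (0.50 ± 0.14). Fcer1g lost its call without replicate 1 (0.43) or 2 (0.46), and the neural marker Mbp without replicate 3 at 10 mmol/l (-0.40). Of the Schwann and neural markers Mbp was called lower (-0.63 ± 0.18), and Gfap, Sox10 and Foxd3 were the dimmest.

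Stellate cell and fibroblast markers differed widely between replicate numbers. Of 21 tested 10 were called higher and 1 lower (median 0.39), yet 0 of the 10 had groups that did not overlap, and without the replicate block 1 was called higher and 1 lower. The collagen Col3a1 had 1546, 1298, 577 and 937 at 10 mmol/l and 943, 790.0, 482 and 707 at 2 mmol/l. Replicate 1 stood well above replicate 3 at 10 mmol/l, while 10 mmol/l exceeded 2 mmol/l within each replicate number (change 0.52 ± 0.076, adjusted p = 2.23e-05). Fibronectin (Fn1) had 699, 691, 353 and 334 at 10 mmol/l and 399.8, 389, 148 and 189 at 2 mmol/l (change 0.93 ± 0.14), and Vim and Col1a2 changed by 0.54 ± 0.08 and 0.55 ± 0.10. The part of these cells in the other changes was not tested.

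The islets at 5 mmol/l lie between the groups in glucose, nearer to 2 mmol/l by difference and nearer to 10 mmol/l by ratio. Counts of genes nearer either level thus do not by themselves place a threshold of glucose. For each gene the 5 mmol/l level was compared with the point halfway, on the log2 scale, between its 2 and 10 mmol/l levels. Of all 18625 probe sets 2094 were called in that comparison (11.2%). Of the 7885 called between 10 and 2 mmol/l, 1412 lay nearer the 2 mmol/l level (17.9%) and 141 nearer the 10 mmol/l level (1.79%). Over genes the counts were 938 (19.5%) and 79 (1.64%) of 4822. Among genes higher at 10 mmol/l they were 394 (18.4%) and 53 (2.47%), and among genes lower at 10 mmol/l 544 (20.3%) and 26 (0.972%). The count near the 10 mmol/l level is small and dropped to 45 probe sets without replicate 1 and to 32 without the replicate block, while the count near the 2 mmol/l level dropped to 807 and to 623.

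These counts were read by list, with no test between lists. In ER-to-Golgi transport 22 of the 45 called members lay nearer the 2 mmol/l level and 0 nearer the 10 mmol/l level. In the ER chaperone list the counts were 15 and 1 of 24, in cholesterol synthesis 10 and 0 of 22, and in the integrated stress response 12 and 1 of 29. The granule list had 4 and 0 of 20 and the ribosomal list 0 and 2 of 23. Mt2A averaged 1231 ± 316, 1153 ± 509 and 139 ± 156 at 2, 5 and 10 mmol/l (SD, n = 4), a midpoint difference of 1.83 ± 0.45 (adjusted p = 0.0134). Mfsd2a averaged 34.0 ± 4.1, 22.6 ± 3.64 and 139.7 ± 26.8 at 2, 5 and 10 mmol/l, so the 5 mmol/l level was the lowest. Idi1 averaged 353 ± 131, 251 ± 21.4 and 1134 ± 227 at 2, 5 and 10 mmol/l (midpoint difference -1.30 ± 0.11, adjusted p = 1.4e-06). Ppp1r15a averaged 1102 ± 147, 1012 ± 149 and 256 ± 56.9 at these concentrations (midpoint difference 0.94 ± 0.087). In these 4 genes nearly the whole change, or more than it, lay between 5 and 10 mmol/l. Txnip averaged 83.3 ± 9.23, 115 ± 19.5 and 346 ± 90.0 at 2, 5 and 10 mmol/l, with a midpoint difference of -0.56 ± 0.13 (adjusted p = 0.0109).

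In a few genes the 5 mmol/l level lay close to the 10 mmol/l level or beyond it. Luc7l averaged 276 ± 37.4, 137 ± 16.6 and 135 ± 25.1 at 2, 5 and 10 mmol/l (midpoint difference -0.48 ± 0.12, adjusted p = 0.0157). The splicing factor Srsf10, the replication origin protein Orc4 and the phosphodiesterase Gpcpd1 were lower at 5 mmol/l than at both 2 and 10 mmol/l, with midpoint differences of -0.55 ± 0.091, -0.61 ± 0.10 and -0.51 ± 0.16. Gpcpd1 lost its call between 10 and 2 mmol/l without replicate 3 (-0.54, adjusted p = 0.0535). Tmbim6, an ER membrane protein that restrains cell death, was highest at 5 mmol/l, with means of 2690.2 ± 133, 4210.2 ± 263 and 3223 ± 249.6 at 2, 5 and 10 mmol/l, and its change between 10 and 2 mmol/l of 0.26 ± 0.059 turned to -0.03 under quantile normalization. Ins1 was not called in this comparison, with means of 6498 ± 729, 8283 ± 743 and 9607 ± 1231 at 2, 5 and 10 mmol/l (adjusted p = 0.497 for the midpoint).

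**Figure D5:**
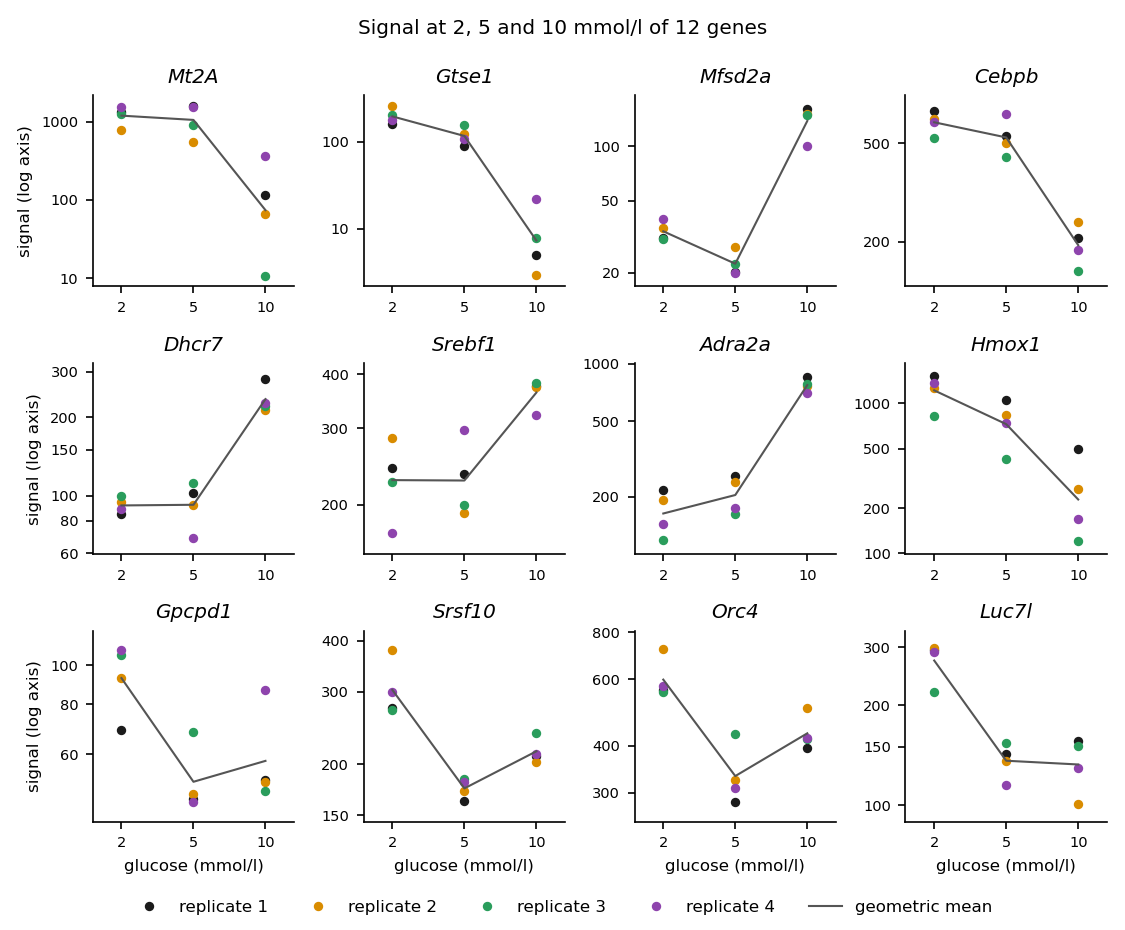
Signals of 12 genes on log axes at 2, 5 and 10 mmol/l, with 1 point per array coloured by replicate number and a grey line through the geometric means. In the upper 2 rows the 5 mmol/l level lies by the 2 mmol/l level, or, for Hmox1, between it and the 10 mmol/l level. In the lower row Gpcpd1, Srsf10 and Orc4 lie below their 10 mmol/l mean and Luc7l close to it.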

How the data were processed

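RNA of rat islets was hybridized to Affymetrix Rat230_2 arrays. The deposited signal intensities are linear values that the authors computed with GCOS, per the submitters' processing notes; their trimmed mean is near 150 on every array, and the software's version and settings are not given in the sources used here. Values under the floor of 3.4 were raised to it and log2 was taken. The upper 60% of probe sets by mean level over all 16 arrays were tested (18625 of 31042, without control probe sets). limma 3.58.1 (R 4.3.3) fitted glucose with the replicate number as a block on all 16 arrays, with a mean-variance trend and Benjamini-Hochberg adjustment, and was tested on simulated data. The labels describe 4 experiments on different preparations, and same-numbered arrays correlated at 0.178 to 0.382 in their deviations from group means, so the numbers were taken as pairs. Same-numbered arrays were also hybridized within 1 min and shared a scan day and a chip lot. This correlation thus cannot tell a shared preparation from a shared run. The second contrast set 5 mmol/l against the midpoint of 2 and 10 mmol/l. A gene is its single-symbol probe set of highest mean (14217 genes, 10223 tested). Of the probe sets, 20826 had 1 symbol, 436 several and 9780 none. Named were the 15 largest changes each way under the filters given above, up to 4 called members per list by smallest p, a fixed set, the 5 midpoint differences largest each way and the 5 smallest p each way. The members and lists were chosen with earlier results of these data known. Counts per list under other settings were added after seeing the data. Alternatives covered normalization, centring, the floor, the filter, the block, scan day, probe set choice and arrays left out. Promoters came from RefSeq (GRCr8).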

Additional observations from a re-analysis of the deposited data

Results flagged for a closer look

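Of 388 groups of 4 arrays examined, 19 held 1 array whose gap to its nearest neighbour exceeded the critical share of the range of Dixon's test at 95%, which is 4.9%, and chance alone marks about 1 in 20. At 10 mmol/l, replicate 4 stood apart in 6 genes: Ddit3 (613.6, others 197.9 to 225.6), Ppp1r15a (340.9, others 221.0 to 233.7), Hspa1a (1445.0, others 84.6 to 108.2), Gpcpd1 (86.6, others 48.6 to 51.8), Cpt1a (228.0, others 265.0 to 270.7) and Srebf1 (322.5, others 374.6 to 381.2). Replicate 1 at 10 mmol/l stood apart in 5: Egr1 (256.3, others 182.4 to 190.6), G0s2 (263.1, others 130.2 to 142.7), Msmo1 (2039.0, others 1297.2 to 1366.5), Hnrnpa2b1 (1169.6, others 1574.6 to 1611.3) and Ssr4 (4129.2, others 4567.6 to 4656.9). Replicate 3 at 10 mmol/l stood apart in Cd74 (371.2, others 212.1 to 223.2), Prdx4 (499.3, others 655.2 to 676.0) and Pyy (429.9, others 719.5 to 781.0). At 2 mmol/l, replicate 1 stood apart in Hadh (4538.8, others 4739.6 to 4781.9) and Srsf1 (395.2, others 292.9 to 306.7). Replicate 3 at 2 mmol/l did so in Luc7l (219.6, others 290.8 to 297.9) and Slc30a1 (234.4, others 304.6 to 320.3), and replicate 2 in Orc4 (719.3, others 553.9 to 574.5).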

How the results depend on the processing

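Of 185 named genes called between 10 and 2 mmol/l, 107 kept sign and call under every alternative run and 78 lost the call or changed sign under at least 1, 8 of them changing sign. The count of called probe sets was 6064 with no replicate block (2910 higher and 3154 lower), and a required 1.5-fold difference left 3285 (1570 higher and 1715 lower). Median centring gave 4541 higher and 3360 lower. Leaving out 1 array or 1 replicate number gave 6353 to 7381 called, 3116 to 3654 higher and 3237 to 3748 lower. The midpoint comparison of 5 mmol/l was less stable. It called 868 with no replicate block, 1026 at an adjusted p under 0.01, 289 with 1.5-fold, and 1184 (without replicate 1) to 2077 with arrays left out. It gave 1297 without replicate 2, 1311 without replicate 3, and 1348 and 1378 without replicates 1 and 2 at 5 mmol/l. Nearer the 2 mmol/l level lay 623 with no replicate block, 705 at 0.01, 195 with 1.5-fold and 807 to 1350 with arrays left out, among them 807, 892 and 841 without replicates 1, 2 and 3. Nearer the 10 mmol/l level lay 32 with no replicate block, 83 with scan day, 84 with no level filter, 75 without the trend, 39 at 0.01, 6 with 1.5-fold, and 45 to 158 with arrays left out. Without replicates 1 to 4 that count was 45, 59, 73 and 65, without replicate 2 at 2 mmol/l 85, without replicates 1, 2 and 3 at 5 mmol/l 61, 81 and 83, and without replicates 1 and 3 at 10 mmol/l 85 and 93. Under quantile normalization the sign turned in Ccnd2 (-0.0345), Cpe (-0.0044), Gcg (-0.0603), Hspa5 (-0.31), Rps23 (-0.0419), Tmbim6 (-0.0315) and Xbp1 (-0.25). The mean of probe sets turned Abat (0.47) and Akr1b1 (0.010). With arrays left out, Glp1r ran between -0.0167 (without replicate 3) and 0.074 and Xbp1 between -0.0236 (without replicate 3) and 0.0956. With no replicate block, the other list counts (higher and lower) that moved by over 1.5 times and by at least 2 genes were 5 and 3 in ion channels, 15 and 1 in fatty acid synthesis, 2 and 2 in fatty acid oxidation, 5 and 5 in amino acid breakdown, 1 and 4 in heat shock, 11 and 1 in immediate early genes, 5 and 4 in fasting, 21 and 3 in the respiratory chain and 6 and 3 in the proteasome. With median centring they were 16 and 1 in fatty acid synthesis, 7 and 2 in fatty acid oxidation, 24 and 3 in the respiratory chain, 42 and 3 in ER-to-Golgi transport and 12 and 4 in the proteasome. With the mean of probe sets they were 16 and 1 in fatty acid synthesis and 5 and 5 in fasting. Small counts moved without replicate 3: the count lower became 1 in glucose uptake, 2 in islet transcription factors, 1 in glycolysis, fatty acid synthesis and immediate early genes and 2 in fatty acid oxidation, and the count higher became 2 in the polyol list and 0 in lipid droplets and endothelial markers. Without replicate 4 at 10 mmol/l, 1 cell cycle gene was higher and 3 ER-to-Golgi genes lower. The causes were not tested. Probe sets near the floor and 4 arrays a group limit precision.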
